A study of Arabidopsis thaliana with 18 samples.

Results

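The genes described here are 10 components of the Arabidopsis thaliana machinery that writes, keeps and removes DNA methylation. They were taken by their locus codes, with earlier results of these data known. They are the DNA methyltransferases MET1 (AT5G49160), CMT3 (AT1G69770), CMT2 (AT4G19020) and DRM2 (AT5G14620), the chromatin remodellers DDM1 (AT5G66750) and DRD1 (AT2G16390), the largest subunits of RNA polymerases IV and V, NRPD1 (AT1G63020) and NRPE1 (AT2G40030), and the DNA glycosylases ROS1 (AT2G36490) and DME (AT5G04560). All 10 were found among the 30014 genes of the table. The gene annotation used for names places CMT3 and NRPD1 on chromosome 1, ROS1, NRPE1 and DRD1 on chromosome 2, CMT2 on chromosome 4, and MET1, DRM2, DDM1 and DME on chromosome 5, and types all of them as protein coding.

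The study hybridised total RNA of 2 genotypes at 3 stages to 18 Affymetrix AGRONOMICS1 tiling arrays, with 3 arrays in each of 6 groups. The control line was NIL-DOG1, which the labels call wild type, and the mutant was rdo5-1, named for the seed dormancy gene RDO5. Each was sampled as whole siliques collected 14 days after pollination, as dry seeds taken soon after harvest, and as seeds that had taken up water for 6 h. No chemical treatment is named for any group, and neither the number of plants behind a sample nor the rest of the rdo5-1 background is given in the sources read here. The labels call the replicates biological.

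In plants, cytosine methylation occurs in CG, CHG and CHH contexts, and each is kept by its own enzymes. MET1 copies CG methylation after replication, the chromomethylases CMT3 and CMT2 follow histone H3 lysine 9 methylation at CHG and CHH sites, and DRM2 is guided to its targets by small RNAs made and read by RNA polymerases IV and V. ROS1 and DME act against them by cutting out methylated cytosines, and in seeds these opposing activities are known for imprinting in the endosperm and for gains and losses of methylation during embryo maturation and germination.

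Values were RMA expression values on a log2 scale and ran from 1.89 to 14.67. Replicate arrays correlated at 0.990 to 0.995 across genes, which are not independent replicates of each other. The array median was 4.31 to 4.35 in siliques, 4.07 to 4.12 in dry seeds and 4.03 to 4.09 in imbibed seeds, so seed and silique arrays did not share 1 distribution of values. RDO5 was lower in rdo5-1 at every stage, with group means of 6.53 and 5.53 in siliques, 10.44 and 9.51 in dry seeds, and 9.80 and 8.46 in imbibed seeds for NIL-DOG1 and rdo5-1. The mean of 6 embryo and seed maturation markers was 11.79 to 12.26 on silique arrays and 13.90 to 14.01 on seed arrays. The mean of 7 silique valve markers was 6.96 to 7.15 on silique arrays and 3.81 to 4.04 on seed arrays, that of 5 seed coat markers 4.96 to 5.43 against 3.33 to 3.63, and that of 5 endosperm markers 4.29 to 4.73 over all arrays. The means of the valve and of the seed coat markers were thus higher on all silique arrays than on any seed array. The part of these tissues in the silique comparisons of the 10 genes was not tested. In such bulk samples fewer cells of a type and less RNA per cell cannot be told apart.

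Most of the machinery was dim in every sample. DRM2 had group means at the 71.8 to 78.3 percentile of all genes, ROS1 at 52.6 to 64.8 and DRD1 at 50.5 to 53.2. CMT3 lay at 38.3 to 50.5, and MET1, CMT2, DDM1, DME, NRPD1 and NRPE1 had group means at or below the 39.9 percentile in all 6 groups. A log2 array value includes background, so fold changes of the dim genes are compressed. Each percentile is the share of all genes with a lower mean signal in the same group. It ranks array signal and does not give a gene's transcript level against another gene's. The span between the highest and lowest of the 6 group means was 0.93 for ROS1 and 0.61 for DRM2, against a median of 0.58 over all genes. The other 8 genes spanned 0.083 to 0.41. MET1 and DDM1 had spans of 0.083 and 0.11, at the 0.400 and 1.24 percentile of all genes.

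**Figure D1:**
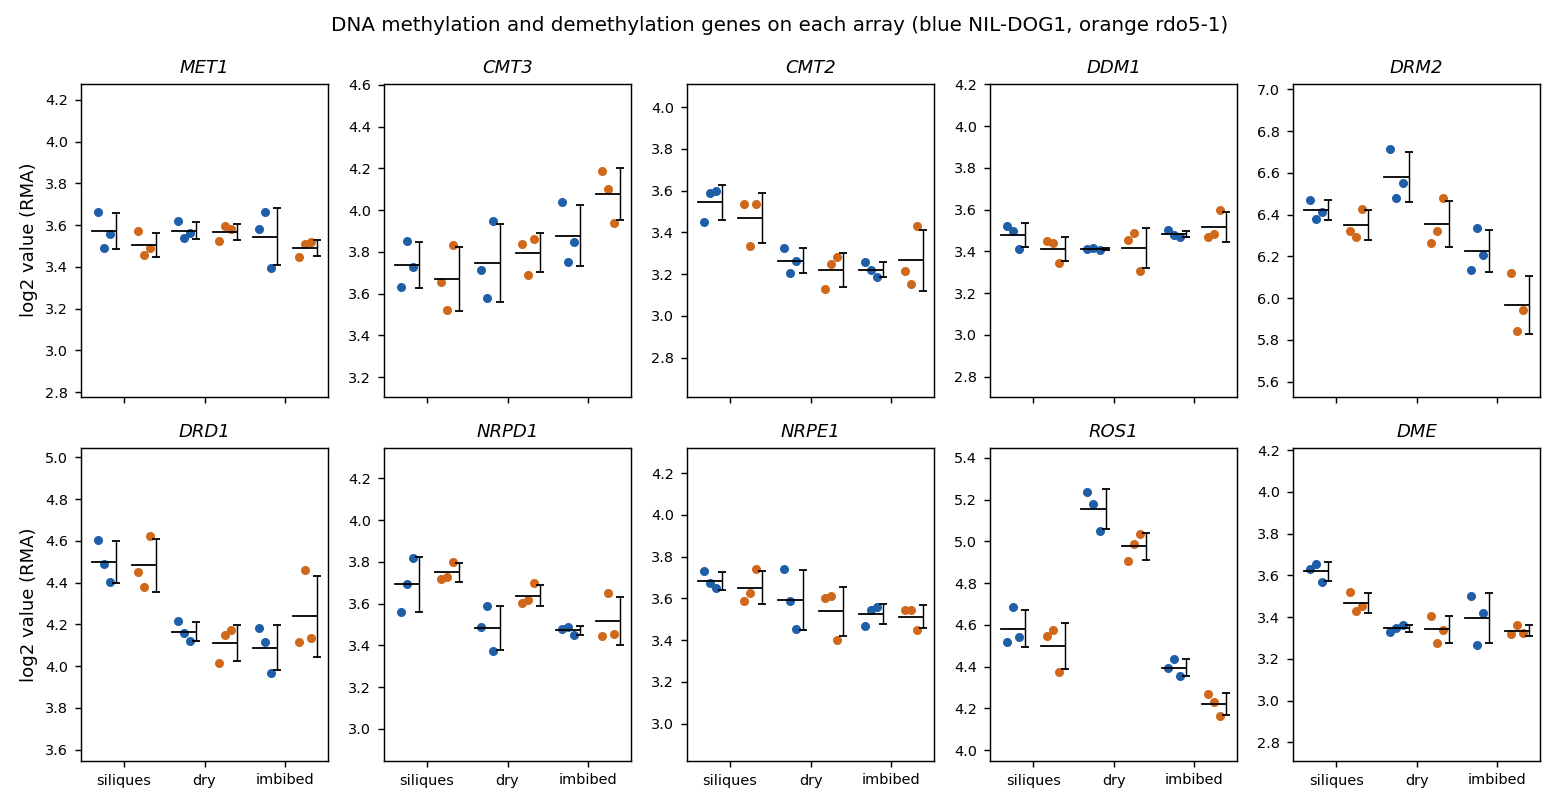
Log2 expression of the 10 genes on each of the 18 arrays, by stage, with points for arrays (blue NIL-DOG1, orange rdo5-1), a line for the mean of 3 arrays and a bar for its SD; panels share the length of the axis but not its position. ROS1 peaks in dry seeds at 4.90 to 5.23, DRM2 is lowest in imbibed seeds at 5.84 to 6.34, and MET1 and DDM1 stay within 0.083 and 0.11 across group means.

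The largest stage difference was that of ROS1, the glycosylase that prunes methylation in vegetative tissues and is itself known to be controlled by methylation of its promoter. In NIL-DOG1 the 3 silique arrays read 4.52, 4.68 and 4.54, the dry seed arrays 5.23, 5.18 and 5.05, and the imbibed seed arrays 4.39, 4.44 and 4.35. In rdo5-1 they read 4.55, 4.57 and 4.37 in siliques, 4.90, 4.99 and 5.03 in dry seeds, and 4.27, 4.23 and 4.16 after imbibition. In both genotypes every dry seed array lay above every silique and every imbibed array. ROS1 rose from siliques to dry seeds by 0.57 ± 0.07 (log2 fold change ± SE, n = 3 arrays per group) in NIL-DOG1, with an adjusted p of 4.43e-06, and by 0.48 in rdo5-1, with an adjusted p of 3.33e-05. It fell from dry to imbibed seeds by 0.76 ± 0.07 in NIL-DOG1, a 1.69-fold drop with an adjusted p of 1.1e-06, and by 0.76 in rdo5-1, with an adjusted p of 9.7e-07. These 4 calls held under the 25 alternatives that left the threshold on the adjusted p as it was, and none reached the further alternative of a log2 fold change of at least 1. The rise in NIL-DOG1 was 0.90 after a further quantile normalization and 0.83 after centring each array on its median. Stage accounted for 91.0% of the variance of ROS1 over the 18 arrays.

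DME, the glycosylase known for demethylation in the central cell that gives rise to the endosperm, followed another course. Its NIL-DOG1 arrays read 3.63, 3.66 and 3.57 in siliques, 3.33, 3.35 and 3.36 in dry seeds, and 3.50, 3.27 and 3.42 in imbibed seeds. It was lower in dry seeds than in siliques by -0.27 ± 0.07, with no overlap of arrays and an adjusted p of 0.00206, a call that was lost when arrays were centred on their medians. In rdo5-1, where siliques read 3.52, 3.43 and 3.45 and dry seeds 3.41, 3.28 and 3.34, it was not called. On the deposited values ROS1 was highest in dry seeds and DME in siliques, but the place of DME depended on the scaling: against siliques in NIL-DOG1, its centred differences were -0.018 in dry and 0.052 in imbibed seeds, and neither was called.

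DRM2, the methyltransferase of the small RNA pathway and of new methylation in all contexts, was the other gene that fell on imbibition. Its NIL-DOG1 arrays read 6.47, 6.38 and 6.42 in siliques, 6.71, 6.48 and 6.55 in dry seeds, and 6.13, 6.34 and 6.21 in imbibed seeds. Its rdo5-1 arrays read 6.32, 6.30 and 6.43 in siliques, 6.27, 6.32 and 6.48 in dry seeds, and 6.12, 5.84 and 5.94 in imbibed seeds. No imbibed array reached the lowest dry seed array of the same genotype. From dry to imbibed seeds DRM2 fell by 0.36 ± 0.09 in NIL-DOG1, or 1.28-fold, with an adjusted p of 0.00628, and by 0.39 in rdo5-1, with an adjusted p of 0.00302. Both calls held under the same 25 alternatives and were below a log2 fold change of 1. From siliques to dry seeds its difference was 0.16 in NIL-DOG1 and was not called on the deposited values, but it was called at 0.31 after quantile normalization and at 0.41 after median centring.

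ROS1 and DRM2 were the 2 of 10 genes called between dry and imbibed seeds, both lower, in NIL-DOG1 and again in rdo5-1. Over all genes 24.9% were called in that comparison in NIL-DOG1 and 10.6% were lower, and in rdo5-1 28.3% were called and 11.9% were lower, so the count of 2 was near the background. The dry seed arrays are shared by the comparison with siliques and the comparison with imbibed seeds, so a high dry seed value enters both with opposite sign. None of the writers MET1, CMT3 and CMT2, of the remodellers, of the polymerase subunits or of DME was called after 6 h of imbibition in either genotype on the deposited values. After quantile normalization CMT3 at 0.36 and DDM1 at 0.20 were called higher in rdo5-1, and after median centring CMT3 at 0.32. Their log2 differences in NIL-DOG1 ran from -0.08 for DRD1 to 0.13 for CMT3.

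The remaining members of the small RNA branch were read near or below the middle of each array. DRD1, a SNF2-type remodeller that helps RNA polymerase V to transcribe its targets, read 4.60, 4.49 and 4.40 in NIL-DOG1 siliques, 4.22, 4.16 and 4.12 in dry seeds, and 4.18, 4.12 and 3.97 in imbibed seeds. In rdo5-1 it read 4.45, 4.38 and 4.62 in siliques, 4.01, 4.15 and 4.17 in dry seeds, and 4.12, 4.46 and 4.13 in imbibed seeds. It was lower in dry seeds than in siliques in both genotypes, by -0.33 ± 0.10 with an adjusted p of 0.00871 in NIL-DOG1 and by -0.37 with an adjusted p of 0.00411 in rdo5-1, and the arrays did not overlap. Its percentile among all genes changed little, from 52.5 in NIL-DOG1 siliques to 51.8 in dry seeds, and the call was lost in both genotypes after quantile normalization and after median centring.

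NRPD1, the largest subunit of the polymerase that starts small RNA production, read 3.56, 3.70 and 3.82 in NIL-DOG1 siliques and 3.49, 3.59 and 3.37 in dry seeds. These overlapped, and the difference of -0.21 had an adjusted p of 0.0371 that both other scalings removed, with the sign turned to 0.046 under median centring. The call was also lost without NIL-DOG1 silique replicate 2 (adjusted p 0.0733) or 3 (0.173) and without NIL-DOG1 dry seed replicate 1 (0.0696) or 3 (0.160). NRPE1, the largest subunit of the polymerase whose transcripts serve as scaffolds for the silencing complex, had group means of 3.51 to 3.68 and was called in no comparison. The 2 polymerase subunits therefore showed no stage difference that was called under every scaling.

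MET1 and DDM1 varied least. MET1 read 3.39 to 3.66 over all 18 arrays, with group means between 3.49 ± 0.04 (SD, n = 3) in imbibed rdo5-1 seeds and 3.57 ± 0.04 in dry NIL-DOG1 seeds. DDM1, the remodeller that opens heterochromatin to the methyltransferases, read 3.31 to 3.60, with group means of 3.41 to 3.52. Neither was called between stages or genotypes on the deposited values. Under median centring both were called higher in dry NIL-DOG1 seeds than in siliques, MET1 at 0.26 and DDM1 at 0.19, and the DDM1 sign on the deposited values was negative. Both stayed below the centred median of all genes in that comparison, which was 0.30.

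The chromomethylases had different profiles. CMT2 read 3.45, 3.59 and 3.60 in NIL-DOG1 siliques and 3.32, 3.20 and 3.26 in dry seeds. It was lower in dry seeds by -0.28 ± 0.08 in NIL-DOG1, with an adjusted p of 0.0092, and by -0.25 in rdo5-1, with an adjusted p of 0.0187. The NIL-DOG1 arrays did not overlap, both calls held after quantile normalization and were lost after median centring, and the mean of CMT2 over all arrays is among the lowest 30% of genes. The rdo5-1 call was also lost without rdo5-1 silique replicate 1 or 3 (adjusted p 0.0721 and 0.0720) and without rdo5-1 dry seed replicate 1 (0.0838). CMT3 was highest in imbibed rdo5-1 seeds, at 4.19, 4.10 and 3.94, against 3.66, 3.52 and 3.83 in rdo5-1 siliques. That difference of 0.41 had an adjusted p of 0.00522 and was the only called rise among the 10 genes from siliques to imbibed seeds on the deposited values.

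From siliques to dry seeds, 5 of the 10 genes were called in NIL-DOG1, ROS1 higher and CMT2, DME, NRPD1 and DRD1 lower, beside 54% of all genes, with 27.4% higher and 26.6% lower. In rdo5-1, 3 of 10 were called, ROS1 higher and CMT2 and DRD1 lower, beside 52.9% of all genes, with 27.2% higher and 25.7% lower. The share of members called was at or under the background in both genotypes. The direction depended on the scaling, because the median log2 fold change of all genes was 0.05 in NIL-DOG1 on the deposited values and 0.30 after median centring. Centring left 5 called genes in NIL-DOG1, but all were higher (MET1, CMT3, DRM2, DDM1 and ROS1). It adds the same amount to every gene of a comparison. MET1 at 0.26, CMT3 at 0.26 and DDM1 at 0.19 stayed below the centred median of all genes, and DRM2 and ROS1 lay above it. The counts after centring are not set beside a share of all genes. ROS1 was the only gene of the 10 called in the same direction under all 3 scalings in both genotypes.

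From siliques to imbibed seeds, 5 of 10 were called lower in NIL-DOG1 (CMT2, ROS1, DME, NRPD1 and DRD1), beside 52.4% of all genes, with 27.3% higher and 25.1% lower. In rdo5-1, CMT3 was higher and DRM2, ROS1, NRPD1 and DRD1 were lower, beside 52.3% of all genes, with 27.3% higher and 25% lower. ROS1 was lower by -0.19 in NIL-DOG1 and -0.28 in rdo5-1, with adjusted p of 0.0464 and 0.00456, which placed imbibed seeds below siliques on the deposited values. In NIL-DOG1 that sign turned under both other scalings, so the order of siliques and imbibed seeds for ROS1 was not settled. After median centring none of the 5 genes called lower in NIL-DOG1 kept its call, and those called were MET1 at 0.25, CMT3 at 0.42 and DDM1 at 0.28, all higher. In rdo5-1 the same 3 genes were called higher after centring, at 0.25, 0.67 and 0.37, and the 4 lower calls were lost. The centred median of all genes was 0.30 in NIL-DOG1 and 0.28 in rdo5-1. MET1 stayed below it in both genotypes and DDM1 in NIL-DOG1. The count in NIL-DOG1 dropped from 5 to 3 without silique replicate 2 or 3 or without any 1 of the 3 imbibed replicates of that line, and in rdo5-1 from 5 to 3 without silique replicate 3 or imbibed replicate 1.

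**Figure D2:**
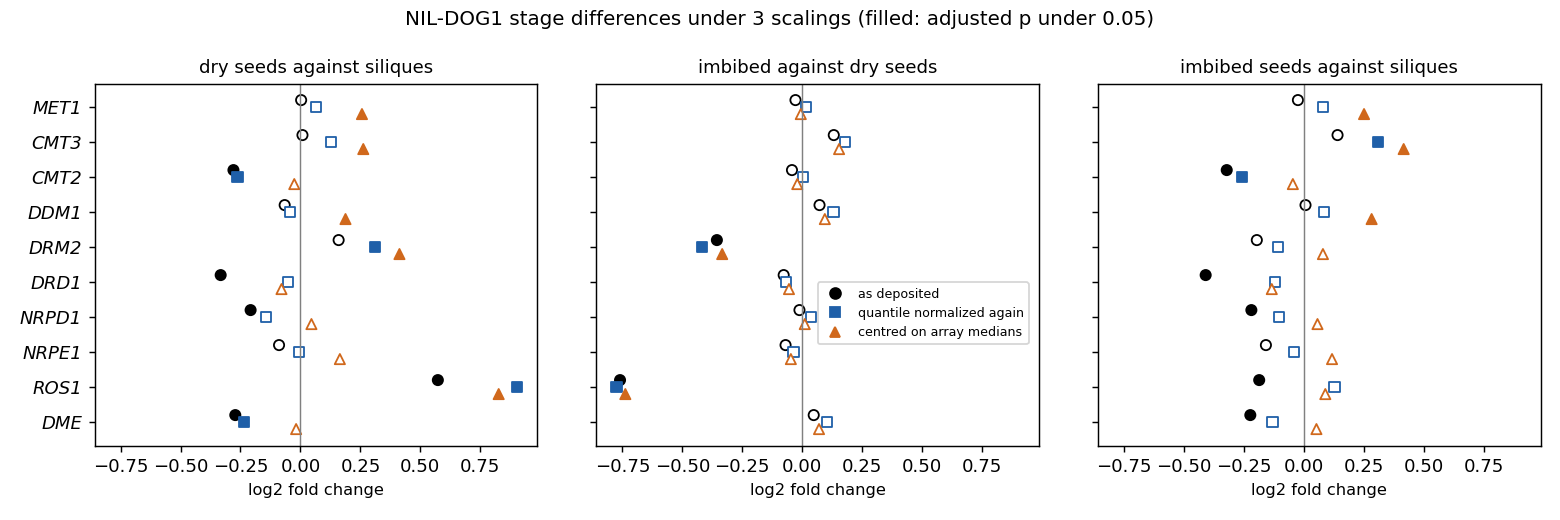
Log2 fold changes of the 10 genes between stages in NIL-DOG1 on the deposited values (circles), after a further quantile normalization (squares) and after centring each array on its median (triangles), filled where the adjusted p was under 0.05. The fall of ROS1 and DRM2 from dry to imbibed seeds has nearly the same size under the 3 scalings. Centring shifts every difference from siliques to the right, by the same amount for all genes of a comparison.

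None of the 10 genes was called between rdo5-1 and NIL-DOG1. The count was 0 in siliques, where 0.2% of all genes were called, 0 in dry seeds beside 0.137%, 0 after imbibition beside 0.633%, and 0 for the mean of the 3 stages beside 0.95%. It was also 0 under every one of those 25 alternatives, whose lowest adjusted p for a member was 0.0834. At an unadjusted p under 0.05 the limma fit gave 1 gene in siliques, 2 in dry seeds, 2 in imbibed seeds and 2 for the mean, where 8.89%, 8.34%, 8.31% and 11.2% of all genes passed.

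In dry and imbibed seeds the genes that passed this unadjusted threshold were DRM2 and ROS1, which also fell on imbibition. DRM2 differed by -0.23 in dry seeds, with a 95% interval of -0.41 to -0.04 and an adjusted p of 0.491, and by -0.26 in imbibed seeds, with an interval of -0.45 to -0.07 and an adjusted p of 0.332. ROS1 differed by -0.18 in dry seeds, with an interval of -0.34 to -0.02 and an adjusted p of 0.531, and by -0.17 in imbibed seeds, with an interval of -0.33 to -0.02 and an adjusted p of 0.523. In both stages the 3 rdo5-1 arrays of either gene lay below the 3 NIL-DOG1 arrays, for DRM2 in dry seeds by less than the second decimal (6.48 against 6.48). For the mean of the 3 stages DRM2 differed by -0.19 ± 0.05 with an adjusted p of 0.126 and ROS1 by -0.15 ± 0.04 with an adjusted p of 0.156, so both failed the correction over all genes.

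DME in siliques was the other gene whose arrays did not overlap in the negative direction, at -0.15 with an adjusted p of 0.516, and NRPD1 in dry seeds was apart in the positive direction, at 0.15 with an adjusted p of 0.630. Arrays that did not overlap were found for 1 of the 10 genes in siliques, beside 12.5% of all genes, for 3 in dry seeds beside 14.7%, and for 2 in imbibed seeds beside 15.5%. CMT3 in imbibed seeds had the largest positive difference, 0.20, with an interval of -0.04 to 0.44. Over the 10 genes and the 3 stages the 95% intervals reached from -0.45 to 0.44. The median difference of the 10 genes was -0.07 in siliques, -0.03 in dry and 0.01 in imbibed seeds.

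**Figure D3:**
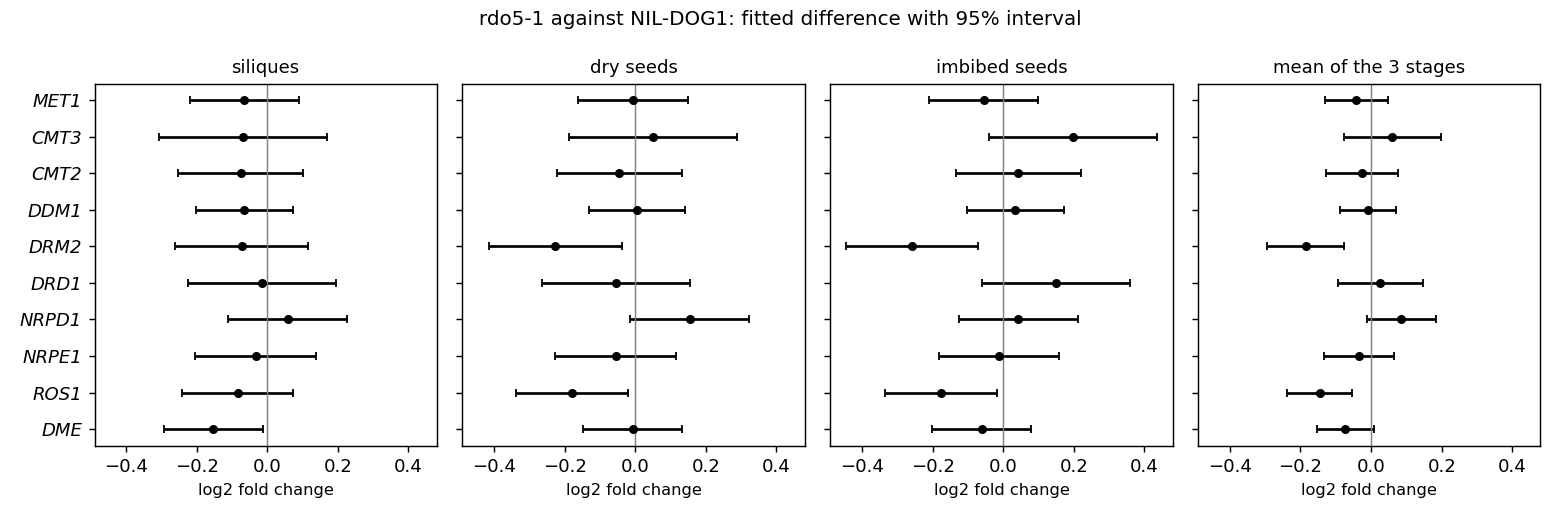
Log2 difference of rdo5-1 against NIL-DOG1 for the 10 genes at each stage and for the mean of the 3 stages, with bars for the 95% interval of the limma fit and n = 3 arrays per group. DRM2 and ROS1 lie below 0 in dry and imbibed seeds, between -0.17 and -0.26, and none of the 10 passes the adjusted p of 0.05.

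The genotype effect did not differ detectably between stages for any member. The comparison of the effect between dry seeds and siliques gave 0 calls of 10, beside 0.05% of all genes, that between imbibed and dry seeds 0 beside 0.02%, and that between imbibed seeds and siliques 0 beside 0.103%. The largest of these differences was 0.27 ± 0.16 for CMT3 between imbibed seeds and siliques, with an adjusted p of 0.753. For ROS1 the effect differed by 0.0042 between imbibed and dry seeds, with a 95% interval of -0.22 to 0.23.

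A list of 3 genes known to be held silent by DNA methylation was also read, chosen with earlier results of these data known. Over all genes 0.2% were called between the genotypes in siliques, 0.137% in dry and 0.633% in imbibed seeds. At such shares the absence of calls among the 10 members sets up no contrast with these picked genes. SDC, an F-box gene silenced by the small RNA pathway and the chromomethylases, had means of 3.85 in NIL-DOG1 and 5.49 in rdo5-1 siliques, 4.17 and 5.74 in dry seeds, and 3.71 and 4.53 in imbibed seeds. It was higher in rdo5-1 by 1.64, 1.57 and 0.83, with adjusted p of 2.2e-05, 5.0e-05 and 0.00912. QQS, an orphan gene whose expression is known to vary with the methylation of its promoter, was higher by 2.56, 1.31 and 1.65 in the same order, with adjusted p of 8.87e-06, 0.0110 and 0.000728. FWA, an imprinted gene silenced by methylation of its promoter repeats, differed by 0.15, 0.08 and 0.03 and was not called. The SDC call in dry seeds was lost when the 6 dry seed arrays were fitted alone (adjusted p 0.100), its call in imbibed seeds without NIL-DOG1 replicate 1 (0.0521), and the QQS call in dry seeds under several omissions of a dry seed array (up to 0.0655). DNA methylation itself was not measured on these arrays.

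A further 81 genes were taken from lists, 57 of them of the methylation pathways and 24 of DNA replication and cell division. None was called between the genotypes at any single stage. MOM1, a silencing factor that acts without changing most methylation, was the only one called for the mean of the 3 stages, at -0.22 ± 0.04 with an adjusted p of 0.0146. A count of 1 in 81 was near the 0.95% called over all genes in that comparison. It differed by -0.12 in siliques, by -0.36 in dry and by -0.19 in imbibed seeds, with adjusted p of 0.665, 0.0688 and 0.398, and at each stage its rdo5-1 arrays were all below its NIL-DOG1 arrays. The call for the mean held under the 25 alternatives without a size threshold, with a highest adjusted p of 0.0371, and MOM1 was picked out here after its values were seen.

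The companions of MET1 and the chromomethylases moved in both directions between siliques and dry seeds. Of 14 genes for maintenance and other methyltransferases, 4 were higher and 3 lower in dry NIL-DOG1 seeds than in siliques, near the 54% called over all genes (27.4% higher and 26.6% lower), with a median log2 fold change of 0.14 against 0.05. VIM2 and VIM3, of the family that recruits MET1 to hemimethylated DNA, rose by 1.49 and 0.98, from 2.65 to 4.15 and from 4.89 to 5.87, and close relatives in this family may share probe signal. SUVH4, the histone methyltransferase that works with CMT3, fell by 0.65, and DRM3, a catalytically inactive relative of DRM2, fell by 0.51. On imbibition VIM3 fell by 0.42 and DRM3 rose by 0.39 in NIL-DOG1.

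Partners of DRM2, DRD1, NRPD1 and NRPE1 were mostly lower in dry seeds. Of 25 further genes of RNA-directed DNA methylation, 2 were higher and 14 lower in dry NIL-DOG1 seeds than in siliques, and 2 were higher and 13 lower in rdo5-1, beside 26.6% and 25.7% of all genes lower, with medians of -0.27 and -0.30. AGO4, the Argonaute that carries the small RNAs to the target, had means of 5.89 in siliques and 3.91 in dry seeds and fell by 1.98. AGO9, an Argonaute known for its role in ovules, fell by 1.23, NRPE5, a subunit of RNA polymerase V, by 1.12, and IDN2, a factor that binds double-stranded RNA, by 1.09. RDM4, a factor shared by several RNA polymerases, rose by 0.78. The balance of the list depended on the scaling, with 6 higher and 10 lower after quantile normalization and 9 higher and 7 lower after median centring in NIL-DOG1. The means of the silique valve and of the seed coat markers were lower in dry seeds in the same comparison, and the part of these tissues was not tested.

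After imbibition 3 of these 25 genes were higher and none was lower in NIL-DOG1, under the 24.9% called over all genes, and the counts were the same under both other scalings. RDM4 rose by 0.83, SHH1, which brings RNA polymerase IV to its targets, by 0.80, and NRPE5 by 0.78. AGO4 stayed low, with a mean of 4.11 in imbibed NIL-DOG1 seeds. DRM2 fell in the same comparison in which these 3 partners rose.

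Genes acting with ROS1 and DME did not share 1 direction. Of 13 genes of demethylation and base excision repair, 5 were higher and 6 lower in dry NIL-DOG1 seeds than in siliques, beside 27.4% and 26.6% of all genes. IDM2 and MBD7, members of the complex that opens chromatin for ROS1, fell by 1.79 and 1.14, while ROS1 itself rose. SSRP1, a subunit of the histone chaperone FACT that is needed for DME action, rose by 1.26, and ROS3, an RNA-binding protein of the ROS1 pathway, rose by 1.14. On imbibition MBD7 fell by a further 0.56 and SSRP1 by 0.36, and XRCC1, a scaffold of the repair step, rose by 0.67. The gene AT1G20870, entered in this list as IDM3 but left unnamed by the annotation used here, rose by 1.06 and then fell by 1.21. Its order was that of ROS1, and from siliques to dry seeds it went against IDM2 and MBD7.

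The genes that supply the methyl donor had the largest median differences of these lists. All 5, the S-adenosylmethionine synthetases SAM1, SAM2, SAM3 and SAM4 and the S-adenosylhomocysteine hydrolase SAHH1, were lower in dry NIL-DOG1 seeds than in siliques, beside 26.6% of all genes, with a median of -1.91. SAM1 fell by 4.86, from 11.42 to 6.56, SAM3 by 4.44, SAM4 by 1.91, SAM2 by 1.81 and SAHH1 by 1.63. After imbibition all 5 were higher, with a median of 1.17 in NIL-DOG1 and 1.29 in rdo5-1, led by SAM4 at 1.61 and SAHH1 at 1.33. Of all genes 24.9% were called in either direction in NIL-DOG1 (10.6% lower) and 28.3% in rdo5-1 (11.9% lower). Both counts were 5 of 5 in each genotype on the deposited values, and the count from siliques to dry seeds was the same under both other scalings. SAM1 and SAM2 are close paralogs, so their separate values are uncertain. SAM1 was higher in imbibed rdo5-1 than NIL-DOG1 seeds by 0.36, with an adjusted p of 0.0866 that missed the threshold.

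MET1, CMT3 and DDM1 are known to be active in dividing cells, so genes of DNA replication and mitosis were set beside them. Of 14 replication genes, 4 were higher and 1 lower in dry NIL-DOG1 seeds than in siliques, beside 27.4% higher and 26.6% lower over all genes, led by FAS2, a subunit of the chromatin assembly factor, at 1.07, and PCNA2, a sliding clamp, at 0.90. PCNA2 rose by a further 0.81 on imbibition, whereas TSO2, a subunit of ribonucleotide reductase, fell by 1.12 and FAS2 by 0.59. Of 10 mitotic genes, 2 were higher and 2 lower in dry seeds, under the 54% called over all genes, and AUR2, an Aurora kinase, rose by 1.61 and then fell by 1.27. MET1 and DDM1 were called in none of these comparisons on the deposited values. After median centring both were called higher in dry NIL-DOG1 seeds than in siliques, at 0.26 and 0.19.

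**Figure D4:**
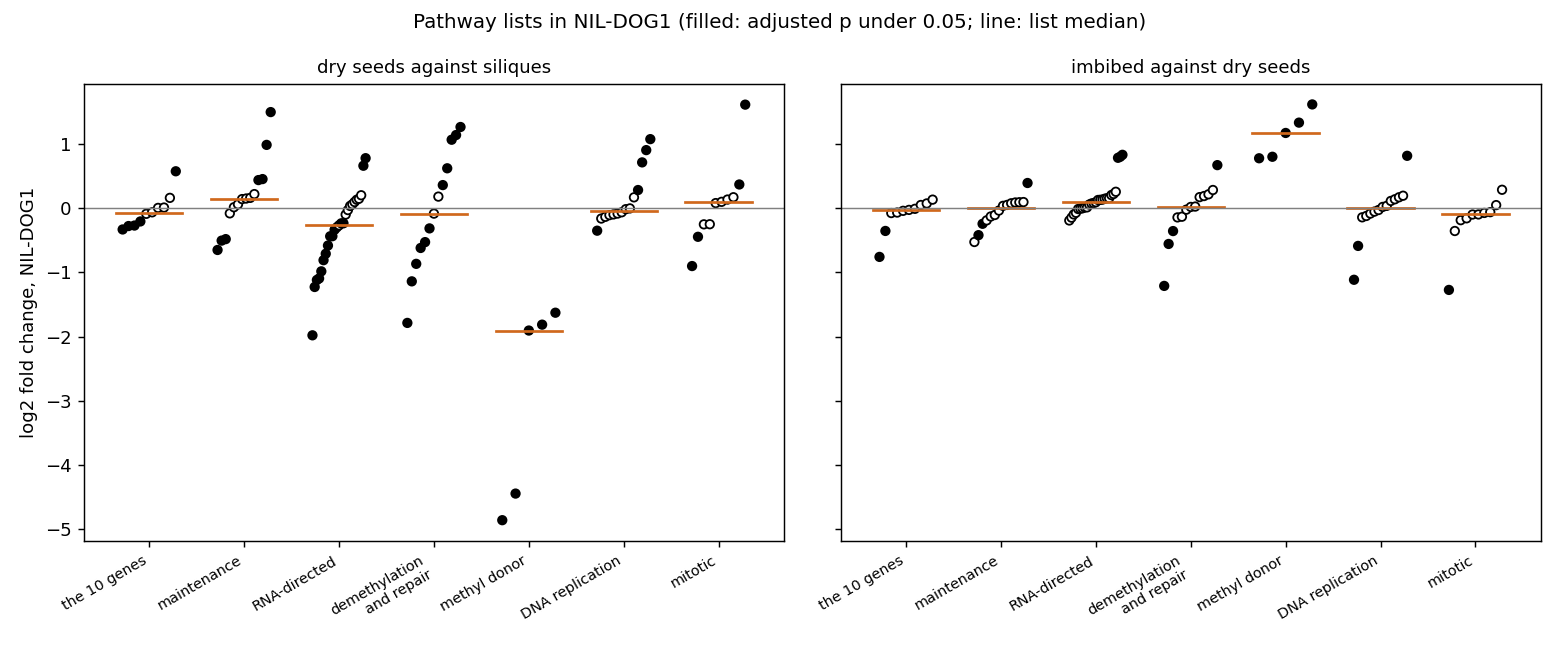
Log2 fold changes in NIL-DOG1 of the 10 genes and of the genes in each pathway list, from siliques to dry seeds and from dry to imbibed seeds, with 1 point per gene, filled where called, and a line at the list's median. The 5 methyl donor genes lie below 0 in the first comparison and above 0 in the second, and the RNA-directed DNA methylation list has 14 called genes below 0 and 2 above 0 in the first.

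Over the 18 arrays, which share stages and genotypes, the members' profiles were only partly alike. The highest Pearson correlation between members was 0.76 for DRM2 and ROS1, followed by 0.71 for CMT2 and DRD1, and the lowest was -0.60 for DRM2 and DDM1. Among all other genes, the profiles most like that of ROS1 were BBX27 at 0.97, AT3G53960 at 0.97 and IAA30 at 0.97. For DRM2 they were AT1G04700 at 0.88, AT4G07917 at 0.87 and AT1G72500 at 0.85, and for DRD1 RABA6a, AT5G05370 and AT1G16916, each at 0.92. For CMT2 they were AT4G25300 at 0.91, AT1G10640 at 0.90 and NADP-ME4 at 0.90, for DME CRK3 at 0.89, AT4G37080 at 0.88 and AT5G23890 at 0.88, and for NRPD1 AT1G64625 at 0.90, HEC3 at 0.88 and AT1G33811 at 0.86. The best correlations of the other 4 genes were lower, with YLS9 at 0.79 for MET1, AT2G39950 at 0.83 for DDM1, AT4G21970 at 0.83 for NRPE1 and AT3G05937 at 0.84 for CMT3.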

How the data were processed

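Expression was measured on 18 arrays of 3 per group. The deposited values are log2 expression, 1 per gene and array, made by the authors with RMA per the submitters' processing notes; the sources used here give neither its version nor the probe-set definition or genome build. A TAIR10.1 gene table matched 29464 of 30014 locus codes and left 550 unmatched, and gave symbols and chromosomes.

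The tests came from limma 3.58.1 (R 4.3.3), in which lmFit gave each of the 6 groups a mean over the 18 unfiltered arrays and eBayes moderated the variance on 12 residual degrees of freedom. P-values were adjusted by Benjamini-Hochberg over all 30014 genes of each of 13 comparisons, and called means an adjusted p under 0.05. The script was tested on simulated data. The number of arrays limits the precision. The p-values set a difference of group means against the spread between arrays within the 6 groups.

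The members and lists were chosen with earlier results of these data known. Named were all 10 members, up to 4 called genes per list with the largest absolute log2 fold change in NIL-DOG1 stage comparisons, of which those of the comparisons discussed are given, list genes called between genotypes, RDO5, SDC, QQS and FWA, and up to 3 genes most like each member by Pearson correlation. Of 88 list genes 84 were used, and DMS3, MORC6, SAHH2 and MCM7 were not analysed here. Sequences and promoter motifs were not analysed here. Alternatives were a filter on the dimmest 30% of genes, a further quantile normalization, median centring, a trended robust prior, array weights, only the arrays compared, the replicate number as a block, a log2 fold change of at least 1, and each array left out.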

Additional observations from a re-analysis of the deposited data

How the results depend on the processing

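Of 130 member comparisons 22 were called. Under at least 1 alternative other than the size threshold, 15 of these lost the call and 7 changed sign. In 14 others a call was gained without a change of sign. Further calls were gained with the sign turned under median centring. These were DDM1 in dry seeds against siliques in NIL-DOG1 and MET1 in imbibed seeds against siliques in both genotypes. The calls of ROS1 between dry seeds and siliques and of ROS1 and DRM2 between dry and imbibed seeds held in both genotypes under the 25 alternatives other than the size threshold. Median centring added the same amount to every gene of a comparison and turned signs upward against siliques. For dry seeds in NIL-DOG1 it gave log2 fold changes of 0.19 for DDM1 and 0.046 for NRPD1. For imbibed seeds it gave, in NIL-DOG1, 0.25 for MET1, 0.089 for ROS1, 0.052 for DME and 0.057 for NRPD1, and in rdo5-1 0.25 for MET1, 0.032 for NRPD1 and 0.021 for DRD1. Quantile normalization turned ROS1 to 0.13 in NIL-DOG1 and 0.0092 in rdo5-1, and DRD1 to 0.037 in rdo5-1, for imbibed seeds against siliques.

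The number of members called between dry seeds and siliques was 5 in NIL-DOG1 and 3 in rdo5-1, with 5 in rdo5-1 after centring. There, quantile normalization lost NRPD1 and DRD1 and gained DRM2 in NIL-DOG1, and lost DRD1 and gained DRM2 in rdo5-1. With only the arrays compared, NRPD1 lost its call in NIL-DOG1 (adjusted p 0.133) and CMT2 in rdo5-1 (0.0537). Between imbibed and dry seeds the number called was 2 in each, with 4 in rdo5-1 after quantile normalization and 3 after centring. Between imbibed seeds and siliques it was 5 in each, with 2 in NIL-DOG1 and 3 in rdo5-1 after quantile normalization, 3 and 3 after centring, and 2 and 3 with only the arrays compared. The 3 after centring were MET1, CMT3 and DDM1 in each genotype, all higher, and none of the lower calls was kept. A log2 fold change of at least 1 left 0 in each of the 6 stage comparisons. The 30% filter leaves out CMT2, which has no value there. Leaving out 1 array gave 4 to 5 and 2 to 3 calls for dry seeds against siliques in NIL-DOG1 and rdo5-1, 2 to 2 in each for imbibed against dry seeds, 3 to 5 and 3 to 6 for imbibed seeds against siliques, and 0 to 0 for every genotype comparison and interaction.

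Over all pairs of groups, arrays with the same replicate number showed no shared deviation at the median. The median correlation of their deviations from the group means was -0.0020 over 45 pairs, against 0.00058 over 90 pairs of other numbers. Between the genotypes it was 0.0018, 0.17 and 0.084 in siliques and -0.030 to 0.018 in dry and imbibed seeds. The 0.17 was the highest of all pairs, where other numbers reached 0.084. With the replicate block the member counts were the same in every comparison except imbibed seeds against siliques in rdo5-1, where 4 were called and DRD1 had an adjusted p of 0.0623. Most members are near the dim end of the scale, which limits the fold changes that can be seen.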
